A study of Macaca mulatta with 4 samples.

Results

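Ribosome biogenesis and RNA polymerase I genes were described in morulae of the rhesus macaque (Macaca mulatta), the compacting ball of cells that precedes the blastocyst. The 39 genes were chosen by known function, with earlier results of these data known. They were found in the count table through their Ensembl macaque gene identifiers. An identifier was matched for 37 of the 39, among 21314 genes in the table, and each of the 37 symbols had a single identifier. DDX21 and EBNA1BP2 were not matched and so not analysed here. All 37 passed the filter on low counts.

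The 4 libraries came from 2 groups with 2 libraries each. AG stands for androgenetic embryos, whose chromosomes all come from sperm, and GG for gynogenetic embryos, whose chromosomes all come from the egg. The labels give no treatment, no animal and no embryo age, and biparental embryos were not analysed here. How many embryos entered a library, and whether the replicates had different parents, is unclear from them. The p-values therefore reflect only the variation among these 4 libraries, which may be technical.

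Ribosomes are assembled in the nucleolus. RNA polymerase I transcribes a long precursor of ribosomal RNA, small nucleolar ribonucleoproteins (snoRNPs) guide its chemical modification, and processing factors cut and fold it into the small and the large subunit. In the early embryo the nucleolus is built up again after fertilisation, as the embryonic genome takes over from the RNA stored in the egg. MYC is a transcription factor known to act on many of these genes.

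Total estimated counts per library ran from 14129608 to 29733977, and the AG libraries were the shallower pair. Levels are given as CPM, the estimated count scaled to a common library total after trimmed-mean (TMM) normalization. They are not per unit of gene length, so they were compared between libraries and not between genes. The embryo markers POU5F1 and NANOG were detected in every library, and 5 matched embryo markers summed to 430 to 485 CPM in AG and 628 to 650.1 CPM in GG. POU5F1 held most of the GG sum, and of the others 2 were lower in GG (DPPA4 and KLF17) and 1 was higher (TFCP2L1). Both groups also differed in markers of stage and lineage. The summed level of 8 matched genome activation markers was 6197 to 8553 CPM in AG and 1769.8 to 2368 CPM in GG. All 8 were lower in GG by edgeR. KHDC1L made up nearly all of the GG sum, at 5389 and 4066 CPM in AG and 2317 and 1717 CPM in GG. Its log2 fold change, GG minus AG, was -1.23, and those of the others ran from -9.81 for LEUTX to -3.24 for ZNF280A. The summed level of 10 matched trophectoderm markers was 280.5 to 321 CPM in AG and 602 to 1074 CPM in GG. Of these 7 were higher in GG, and GATA2 was at 0 in AG. TFAP2C went the other way, at 104 and 110 CPM in AG and 48.1 and 61.7 CPM in GG. So did DAB2, at 126 and 187 CPM in AG and 24.0 and 70.5 CPM in GG. Neither was called by edgeR, while DESeq2 called both (adjusted p = 0.0229 and 0.0113). Oocyte RNA markers summed to 321 to 436 CPM in AG and 502 to 512 CPM in GG over 10 matched genes. OOEP, whose groups overlapped, made up most of each sum, and FIGLA was at 0 in AG and in GG replicate 2. KPNA7 and WEE2 were called higher in GG, and 0 were called lower. The GG replicates stood apart, at 43.8 and 8.22 CPM for KPNA7 and 73.8 and 18.4 CPM for WEE2. NLRP5 went the other way without being called, at 2.07 and 0.965 CPM in AG and 0.617 and 0.0682 CPM in GG. Blood cell markers summed to 69.1 to 155 CPM in AG and 14.8 to 19.1 CPM in GG over 7 matched genes. PTPRC made up most of the AG sum, ALAS2 was at 0 in AG, and CD3E had at most 1 count in a library. Of 6 matched sperm markers, 4 had 0 counts in all libraries and the sum did not pass 0.499 CPM. Cumulus markers summed to 5.38 to 32.6 CPM in AG and 27.5 to 48.5 CPM in GG over 8 matched genes, with FSHR at 0 throughout. HSD17B1 made up most of each cumulus sum, at 25.4 and 4.88 CPM in AG and 46.3 and 16.3 CPM in GG. The part of these markers in the values given here was not tested. Counts of GNL3, POLR1C, NOP10, BOP1, POLR1A and WDR43 are uncertain, because these genes overlap another protein-coding gene and the strand setting of the counting is unknown. Those of NOP56, NOP58, NCL, DKC1 and UTP20 are uncertain too, since these genes, like GNL3 and WDR43, hold small nucleolar RNA genes. In bulk RNA, fewer cells of a type and less RNA per cell cannot be told apart.

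Relative to the library total, GG morulae held less RNA than AG morulae of 4 of the 37 genes. These were MYC, the large-subunit methyltransferase NOP2, the snoRNP methyltransferase fibrillarin (FBL) and the snoRNP protein NHP2, with levels 2.54 to 5.19 times higher in AG. Higher levels in GG were called for 0 members, and 33 were not called in either direction (edgeR quasi-likelihood test, Benjamini-Hochberg adjusted p under 0.05 over 13227 genes). Among all tested genes 12.9% were called, 6.58% lower and 6.34% higher in GG, against 10.8% of the members, all lower. Log2 fold changes, GG minus AG, were negative for 28 members and had a median of -0.43, where all tested genes had a median of 0.04. At an unadjusted p under 0.05 there were 15 members lower and 2 higher in GG, where 32% of all tested genes passed, 16.3% lower and 15.8% higher. DESeq2 called 8 lower and 1 higher, and it called 25.7% of all genes for which it gave an adjusted p.

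All 4 calls needed both GG libraries, while their fold changes kept their direction without either. With GG replicate 1 or GG replicate 2 left out, 0 members were called, when the fit called 120 and 69 genes in all and took its spread from the AG pair. The log2 fold changes without GG replicate 1 and without GG replicate 2 were -2.94 and -2.00 for MYC, -1.47 and -2.04 for NOP2, -1.35 and -1.63 for FBL, and -1.21 and -1.52 for NHP2. Without AG replicate 2 there were 15 calls among the members, 14 of them lower in GG, and 3942 over all genes. The 11 members added there were NOP56, NOP58, NPM1, LYAR, UTP15, DDX10, PES1, GNL2, POLR1C and RRN3, lower in GG, and POLR1B, higher in GG.

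Both GG libraries lay below both AG libraries for 22 members and above them for 5, and the groups overlapped for 10. Of all tested genes 30.7% lay below and 33.4% above in this way, 64.1% in all. All 37 members together made up 1.55% and 1.25% of the counts in the AG libraries, and 1.06% and 0.915% in GG. The replicates of a group differed too. Between the AG replicates the median absolute log2 difference was 0.33 over the members, and between the GG replicates 0.21, where all genes counted in every library had 0.58 and 0.35.

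**Figure D1:**
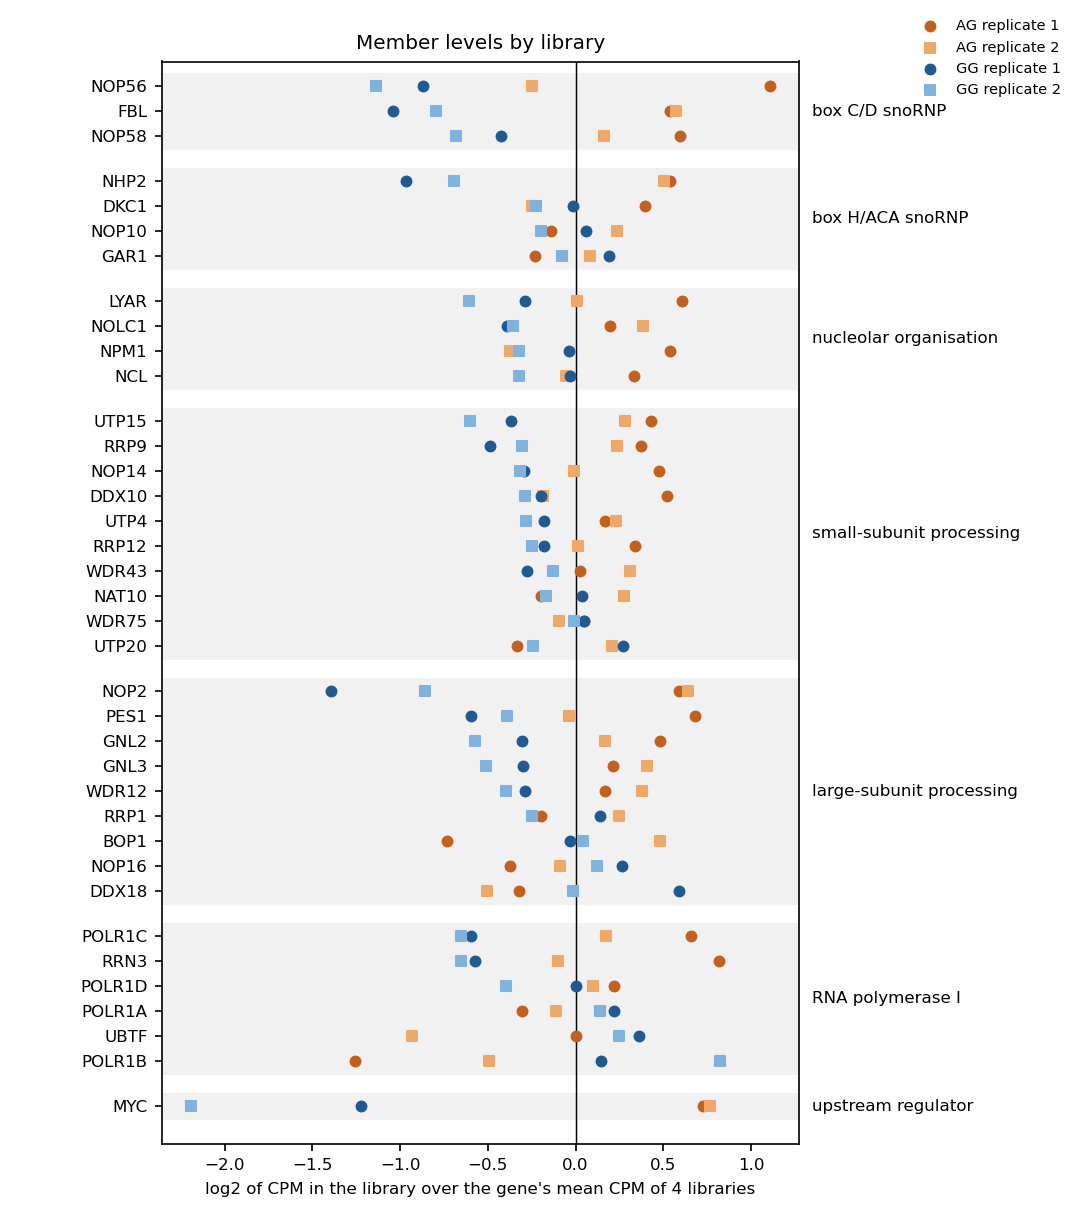
Level of each of the 37 members in each library, as the log2 of its CPM over that gene's mean CPM of the 4 libraries; genes are ordered within role groups and colours mark the group. GG libraries sit to the left of AG libraries for 22 genes, and MYC spans the widest range.

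MYC (ENSMMUG00000014601) was the member with the largest difference. It stood at 49.2 and 50.6 CPM in AG, and at 12.7 and 6.51 CPM in GG; values are given here and below in the order replicate 1, replicate 2. The AG pair was nearly level and the GG pair lay far below it, with a gap between the GG replicates. The log2 fold change was -2.38 ± 0.44 (SE of the fit, n = 2 per group, edgeR adjusted p = 0.0299). Over settings that kept all libraries the adjusted p ran from 6.48e-06 with DESeq2 to 0.0312. Without GG replicate 1 or GG replicate 2 it was 0.109 and 0.193.

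MYC pairs with MAX to bind DNA, and relatives of both proteins form a network around them. Of 10 network genes listed, 9 matched and 8 were tested, with 1 lower in GG, 0 higher and a median log2 fold change of -0.81. The call was 12.5% of those tested, near the 12.9% of all tested genes that were called. The called gene was MLX, which encodes a MAX-like dimer partner. It stood at 70.7 and 66.2 CPM in AG and 20.2 and 19.6 CPM in GG, a log2 fold change of -1.78 ± 0.30 (edgeR adjusted p = 0.0258). MAX itself was at 187 and 271 CPM in AG against 130.3 and 88.8 CPM in GG, and edgeR did not call it (adjusted p = 0.0872). Without GG replicate 1 or 2 MLX was no longer called, with log2 fold changes of -1.80 and -1.79.

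The box C/D snoRNP places methyl groups on the ribose of ribosomal RNA, with FBL as its enzyme and NOP56 and NOP58 as its scaffold. FBL (ENSMMUG00000022725) stood at 150.1 and 153 CPM in AG and at 50.1 and 59.4 CPM in GG. The replicates of each group lay close together and the groups were far apart. Its log2 fold change was -1.47 ± 0.26 (SE, edgeR adjusted p = 0.0294), and without GG replicate 1 or 2 the adjusted p was 0.231 and 0.199. NOP58 was at 1197 and 888 CPM in AG and 590.2 and 494 CPM in GG, and NOP56 at 1029 and 401 CPM in AG and 261 and 216 CPM in GG. Neither was called by edgeR (adjusted p = 0.0634 and 0.0778), although both GG libraries lay below both AG libraries, and DESeq2 called both (0.0273 and 0.00930). NOP56 was 2.56 times higher in AG replicate 1 than in AG replicate 2. Its log2 fold change of -1.58 was -0.75 without AG replicate 1 and -2.14 without AG replicate 2, where it was called (adjusted p = 0.00195).

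The box H/ACA snoRNP converts uridine to pseudouridine. DKC1 is its enzyme, and NHP2, NOP10 and GAR1 are its other core proteins. NHP2 (ENSMMUG00000018757) stood at 269 and 262 CPM in AG and at 94.7 and 115 CPM in GG, and its groups did not overlap. The log2 fold change was -1.34 ± 0.25 (SE, edgeR adjusted p = 0.0301), and without GG replicate 1 or 2 the adjusted p was 0.240 and 0.197. The partners of NHP2 showed overlapping groups. DKC1, an X-linked gene, was at 335 and 214 CPM in AG and 251 and 218 CPM in GG. NOP10 was at 54.6 and 70.7 CPM against 62.8 and 52.4 CPM, and GAR1 at 54.9 and 68.1 CPM against 73.5 and 61.0 CPM. Their log2 fold changes were -0.22 ± 0.30, -0.12 ± 0.30 and 0.13 ± 0.29, and their signs changed when single libraries were left out.

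Ratios of counts between members of a complex do not depend on the scaling of the library. The pairs given here were picked with their values in view and were not tested. The count of NHP2 over that of DKC1 was 0.804 and 1.23 in AG and 0.377 and 0.526 in GG. NHP2 over GAR1 was 4.91 and 3.85 in AG and 1.29 and 1.88 in GG. For both pairs the AG ratios were above the GG ratios in every library. NOP56 over NOP58 was 0.859 in AG replicate 1, while the other three libraries lay between 0.438 and 0.452.

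Of 4 nucleolar proteins with broad roles, 0 were called by edgeR or DESeq2, with 2 lower in GG at an unadjusted p under 0.05 (16.3% of all tested genes). NPM1 (nucleophosmin), an abundant chaperone of the nucleolus, was at 3441 and 1829.9 CPM in AG and 2307 and 1895 CPM in GG. The AG replicates of NPM1 lay on either side of the GG pair. Its log2 fold change was -0.33 ± 0.34, and 0.20 without AG replicate 1. NPM1 is known to have many processed copies, so its estimated counts are uncertain. NCL (nucleolin), which binds ribosomal RNA precursors, was at 3229 and 2474 CPM in AG and 2515 and 2055 CPM in GG, again with overlap. NOLC1, which travels with snoRNPs, was at 371 and 422 CPM in AG and 247 and 252 CPM in GG. The zinc finger protein gene LYAR was at 410.0 and 270.4 CPM in AG and 220.2 and 177 CPM in GG. For NOLC1 and LYAR both GG libraries lay below both AG libraries, as they did for 30.7% of all tested genes. The log2 fold changes of NOLC1 and LYAR were -0.67 ± 0.22 and -0.78 ± 0.30 (edgeR adjusted p = 0.102 and 0.140).

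Genes of small-subunit processing were represented by 10 members, and 0 of them were called by edgeR (adjusted p from 0.0918 to 0.920). At an unadjusted p under 0.05, 2 were lower in GG and 0 higher, beside 16.3% and 15.8% of all tested genes. DESeq2 called 1, beside 25.7% of all genes for which it gave an adjusted p. The median log2 fold change of these 10 was -0.41. UTP15, of the complex that joins the precursor as it is transcribed, was at 139 and 125 CPM in AG and 79.9 and 67.9 CPM in GG. It had a log2 fold change of -0.84 ± 0.26 and was the gene that DESeq2 called (adjusted p = 0.0409). RRP9, a protein of the U3 snoRNP, was at 125.0 and 114 CPM in AG and 68.9 and 78.2 CPM in GG. Both GG libraries also lay below both AG libraries (30.7% of all tested genes) for NOP14, RRP12, UTP4, WDR43 and the helicase gene DDX10. Their log2 fold changes ran from -0.56 for NOP14 to -0.38 for WDR43. WDR75 overlapped between groups, at 233 and 211 CPM in AG and 232.9 and 224 CPM in GG, a log2 fold change of 0.04 ± 0.23. UTP20, a large scaffold protein gene, and NAT10, an acetyltransferase of ribosomal RNA, had overlapping groups and log2 fold changes of 0.08 ± 0.34 and -0.12 ± 0.33.

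Genes of large-subunit processing were represented by 9 tested members, of which 1 was lower and 0 were higher in GG by edgeR. The call was 11.1% of these members, beside 6.58% of all tested genes called lower and 6.34% called higher in GG. At an unadjusted p under 0.05, 4 were lower and 1 was higher, beside 16.3% and 15.8% of all tested genes. NOP2 (ENSMMUG00000018683), which methylates a cytosine of the large ribosomal RNA and is an old marker of proliferating cells, stood at 147 and 152 CPM in AG. In GG it stood at 37.0 and 53.8 CPM. The AG pair was level, the GG pair lay 3.29-fold lower on average, and the log2 fold change was -1.72 ± 0.31 (SE, edgeR adjusted p = 0.0287). Without GG replicate 1 or GG replicate 2 the adjusted p of NOP2 was 0.207 and 0.155.

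BOP1, PES1 and WDR12 form a complex needed to mature the large subunit, and they ordered the libraries differently. BOP1 was at 36.4 and 84.5 CPM in AG and 59.2 and 62.4 CPM in GG, with both GG libraries between the AG replicates. PES1 was at 57.0 and 34.7 CPM in AG and 23.6 and 27.1 CPM in GG. WDR12 was at 234 and 271 CPM in AG and 171 and 158 CPM in GG. The log2 fold changes were 0.01 ± 0.45, -0.85 ± 0.37 and -0.62 ± 0.24, and none was called by edgeR (adjusted p = 0.992, 0.178 and 0.139). BOP1 stood at -0.48 without AG replicate 1 and at 0.71 without AG replicate 2, so its direction rested on which AG library was used.

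The nucleolar GTPase genes GNL2 and GNL3 lay lower in both GG libraries without being called. GNL3 (nucleostemin), known from stem cells, was at 1128 and 1294 CPM in AG and 791 and 683 CPM in GG (log2 fold change -0.72 ± 0.22, edgeR adjusted p = 0.0843). GNL2 was at 279 and 225 CPM in AG and 162 and 135 CPM in GG, a log2 fold change of -0.77 ± 0.26. The opposite order held for NOP16 and for the helicase gene DDX18. NOP16 was at 272 and 330.4 CPM in AG and 422 and 382 CPM in GG, and DDX18 at 221 and 194 CPM in AG and 415 and 273 CPM in GG. Their log2 fold changes were 0.42 ± 0.23 and 0.73 ± 0.29, and neither was called by edgeR (adjusted p = 0.276 and 0.148). RRP1 overlapped between groups, with a log2 fold change of -0.08 ± 0.33. The count of NOP2 over that of NOP16 was 0.541 and 0.461 in AG and 0.0879 and 0.141 in GG, another pair chosen after its values were seen.

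**Figure D2:**
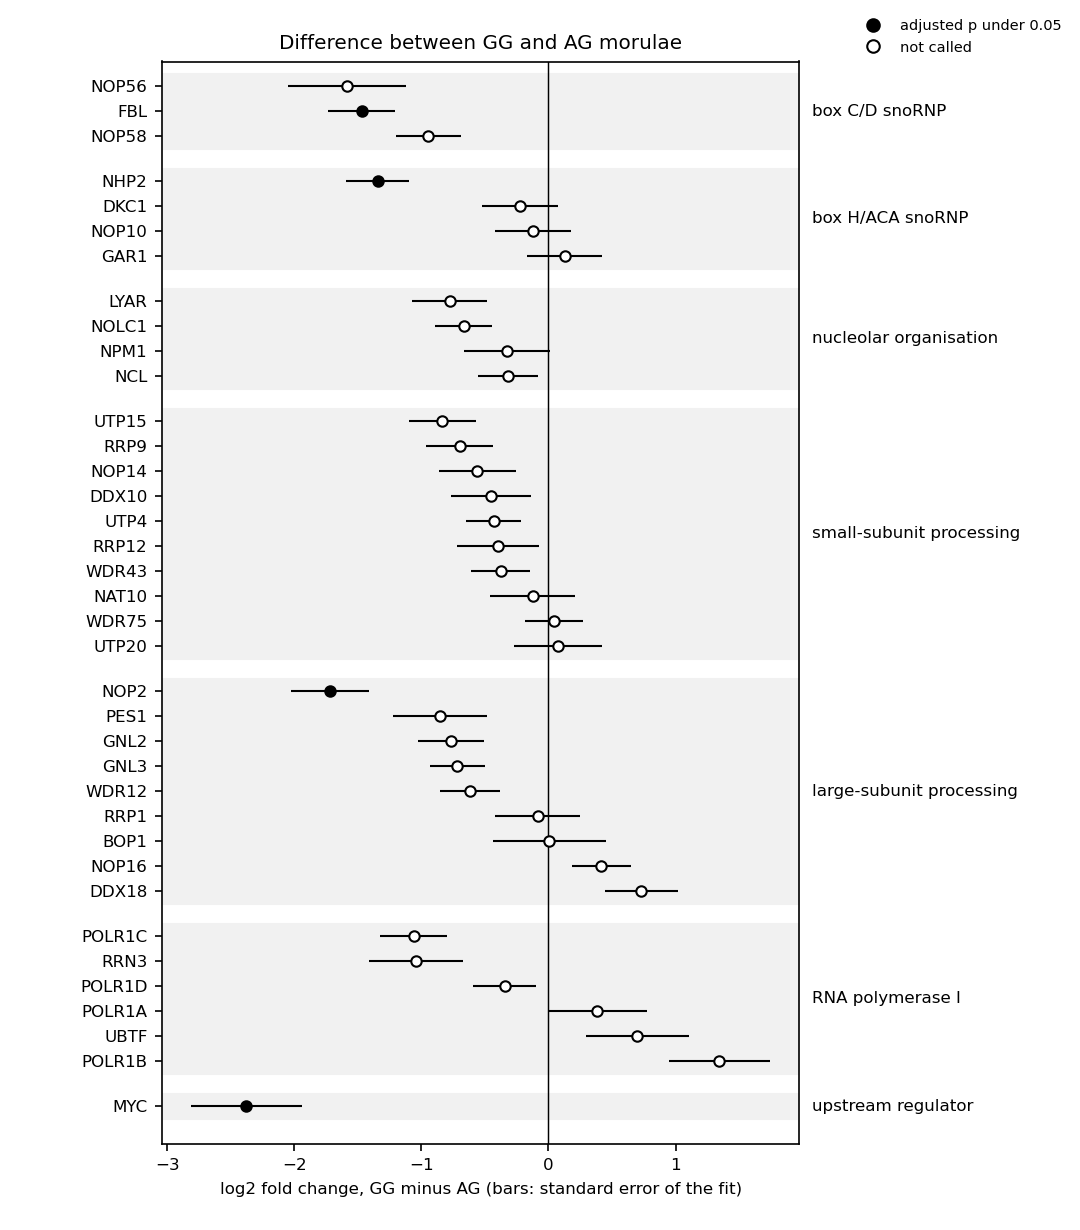
Log2 fold change of each member, GG minus AG, with the standard error of the edgeR fit as bars; filled points passed an adjusted p of 0.05. The 4 filled points (FBL, NHP2, NOP2 and MYC) lie left of 0, and POLR1B has the highest value, at 1.35, without passing.

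RNA polymerase I members lay on both sides of 0, and 0 of 6 were called by edgeR, beside 12.9% of all tested genes. At an unadjusted p under 0.05, 2 were lower and 1 was higher in GG, where 32% of all tested genes passed. DESeq2 called 1 lower and 1 higher, beside 25.7% of all genes for which it gave an adjusted p. POLR1A and POLR1B encode the pair of large subunits that form the catalytic core. POLR1B was at 38.3 and 65.0 CPM in AG and at 101 and 162 CPM in GG. Its groups did not overlap, and the log2 fold change was 1.35 ± 0.40 (edgeR adjusted p = 0.0807). POLR1B was called with DESeq2 (adjusted p = 0.0147), in the unfiltered table (0.0393), with the replicate block (0.0421) and without AG replicate 2 (0.0215). POLR1A was at 9.47 and 10.9 CPM in AG and 13.6 and 12.9 CPM in GG, a log2 fold change of 0.38 ± 0.39.

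POLR1C and POLR1D encode a pair of subunits that RNA polymerase I shares with RNA polymerase III. POLR1C was at 418 and 299 CPM in AG and 175 and 168 CPM in GG. This was the opposite order to POLR1B, with a log2 fold change of -1.06 ± 0.26, and POLR1C lay just outside the threshold (edgeR adjusted p = 0.0539). It passed with DESeq2 (0.0132), without a filter on low counts (0.0282), with a minimum mean of 10 CPM (0.0436), without AG replicate 1 (0.0490) and without AG replicate 2 (0.00694). POLR1D was at 337 and 309 CPM in AG and 289 and 219.7 CPM in GG, a log2 fold change of -0.34 ± 0.25.

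A pair of initiation factors of RNA polymerase I also had opposite orders of the groups. UBTF binds the ribosomal RNA genes and keeps them active, and RRN3 brings the polymerase to its promoter. UBTF was at 37.9 and 19.8 CPM in AG and 48.5 and 44.9 CPM in GG. RRN3 was at 176 and 93.3 CPM in AG and 67.3 and 63.7 CPM in GG. Both were higher in AG replicate 1 than in AG replicate 2 and nearly level in GG. The log2 fold changes were 0.70 ± 0.40 and -1.04 ± 0.37, and neither was called by edgeR (adjusted p = 0.293 and 0.1197). UBTF passed without AG replicate 1 (adjusted p = 0.0459) and RRN3 without AG replicate 2 (0.00830).

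The count of UBTF over that of RRN3 was 0.215 and 0.212 in AG and 0.721 and 0.706 in GG. It was close between replicates of a group, although the AG replicates of each gene differed. POLR1B over POLR1C was 0.0918 and 0.218 in AG and 0.576 and 0.960 in GG. POLR1B over POLR1A was 4.05 and 5.98 in AG and 7.41 and 12.5 in GG. All GG ratios were above all AG ratios for each of these pairs, which were picked with their values in view and carry no test.

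**Figure D3:**
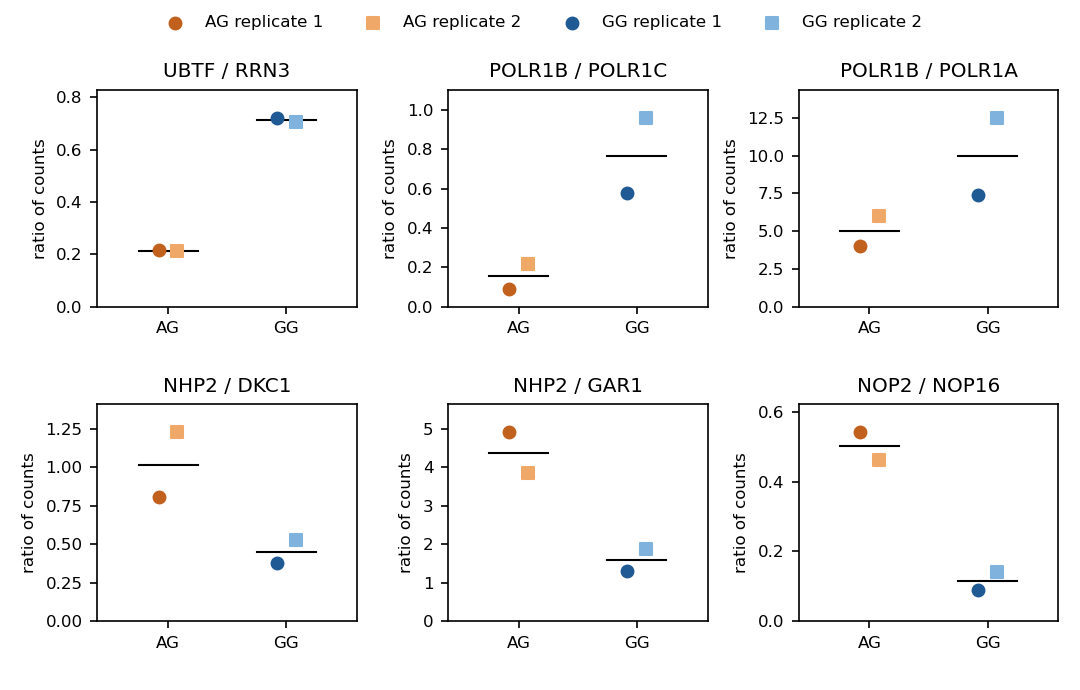
Ratio of the counts of 2 members in each library, for 6 pairs; points are libraries, horizontal lines are group means and every axis starts at 0. UBTF over RRN3 is near 0.21 in both AG libraries and above 0.7 in both GG libraries, while NHP2 over DKC1, NHP2 over GAR1 and NOP2 over NOP16 are lower in GG.

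Genes of the same pathway outside the 39 were taken from 6 lists of RNA polymerase I, small-subunit, large-subunit, snoRNP assembly, exosome and RNA polymerase III genes. Of 154 listed, 140 were tested, and 19 were lower and 1 was higher in GG by edgeR (13.6% and 0.714%, beside 6.58% and 6.34% of all tested genes). Their median log2 fold change was -0.48 and 107 were negative. As for the members, these calls needed both GG libraries, and without either far fewer genes were called in the whole table. Without AG replicate 2 more of the pathway genes were called, as were more of all tested genes.

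Small-subunit genes gave 8 of the 19, out of 41 tested (19.5%, beside 6.58% of all tested genes). NOB1, the nuclease that makes the last cut of the small ribosomal RNA, was at 386 and 299 CPM in AG and 66.4 and 67.4 CPM in GG (log2 fold change -2.36 ± 0.26, edgeR adjusted p = 0.0123). MPHOSPH10, a U3 snoRNP protein gene, was at 653 and 519 CPM in AG and 123 and 134 CPM in GG. SNU13, which binds box C/D snoRNAs together with the members NOP56, NOP58 and FBL, was at 1931 and 1355 CPM in AG and 549 and 542 CPM in GG. It was called, with a log2 fold change of -1.59 ± 0.25. For each of these genes the AG and GG libraries were far apart.

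Large-subunit genes gave 3 of 46, namely BRIX1, WDR74 and RSL24D1, with log2 fold changes of -1.49, -1.27 and -1.09. Called lower in GG were 6.52% of this list, beside 6.58% of all tested genes. The snoRNP assembly, exosome and RNA polymerase III lists had 25%, 15.4% and 10%. The snoRNP assembly genes ZNHIT6 and NUFIP1, whose products help to build box C/D particles, had -2.38 ± 0.42 and -1.65 ± 0.36 and were the 2 of 8 called. Of 13 exosome and trimming genes, the nuclease gene DIS3 was lower by a log2 fold change of -2.36 ± 0.25, at 413 and 433 CPM in AG and 89.6 and 74.8 CPM in GG. EXOSC5, a structural subunit, was the other called gene, at -1.17 ± 0.24. Large falls were also called for 2 of 20 RNA polymerase III genes. POLR3G, an alternative subunit known from pluripotent cells, was at 1002 and 655 CPM in AG and 146 and 129 CPM in GG, and POLR3C at 312 and 417 CPM in AG and 77.2 and 68.6 CPM in GG. Their log2 fold changes were -2.59 ± 0.30 and -2.32 ± 0.27.

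Among 12 tested RNA polymerase I genes outside the members, 16.7% were lower in GG, beside 6.58% of all tested genes. These were TAF1A and TAF1D, with log2 fold changes of -1.51 ± 0.36 and -1.42 ± 0.25. Both encode parts of the selectivity factor that recognises the promoter of ribosomal RNA genes. TAF1A lost its call with upper-quartile normalization (edgeR adjusted p = 0.0520) and with the replicate block (0.05003). POLR2E, a subunit shared by all nuclear RNA polymerases, was higher in GG, at 97.9 and 118 CPM in AG and 328 and 326 CPM in GG (log2 fold change 1.602 ± 0.24). It was the single gene of these 6 lists that edgeR called higher with all libraries and the filter on low counts. DESeq2 called 1 more, POLR3GL, which encodes the alternative form of the POLR3G subunit and is named here after its values were seen. POLR3GL was at 3.78 and 1.42 CPM in AG and 12.4 and 17.2 CPM in GG (edgeR adjusted p = 0.0544, DESeq2 adjusted p = 0.00189).

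Cytosolic ribosomal protein genes, which encode the proteins that the ribosome is built from, were set beside the members. Of 79 listed, 59 were tested and 0 were called by edgeR, with 2 lower and 3 higher in GG at an unadjusted p under 0.05, beside 32% of all tested genes in either direction. DESeq2 called 1 lower and 1 higher, beside 25.7% of all genes for which it gave an adjusted p. The median log2 fold change of the ribosomal protein genes was 0.08. Both GG libraries lay below both AG libraries for 9 and above for 15 (30.7% and 33.4% of all tested genes). They made up 5.73% and 6.19% of the counts in AG, and 6.58% and 5.36% in GG, so the shares of both groups overlapped. These genes have many near copies in the genome and their estimated counts are uncertain. The difference between this list and the members was not tested.

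**Figure D4:**
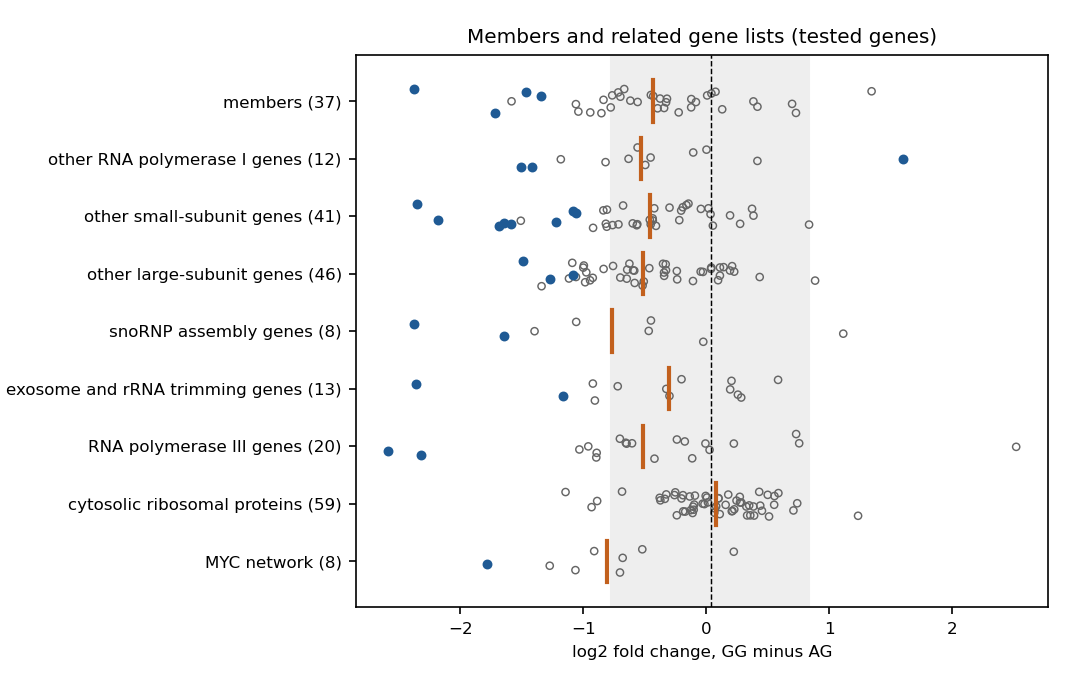
Log2 fold change, GG minus AG, of every tested gene of each list; filled points passed an adjusted p of 0.05, orange lines are list medians, and the dashed line and grey band are the median and interquartile range of all tested genes. Medians of the members and of the lists of biogenesis genes lie between -0.76 and -0.30, and that of the ribosomal proteins at 0.08.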

How the data were processed

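RNA from 4 macaque morula libraries was analysed, 2 AG and 2 GG, grouped by their titles. The values deposited by the authors are estimated counts per Ensembl gene, not scaled to library size, and 30.0% to 32.2% of the values in a library were not whole. Per the labels' protocols, cDNA was amplified with a SMARTer kit for ultra-low input. No molecular identifiers are named. Trim Galore, STAR 2.6.0c, Salmon 0.12.0 and the build rheMac8 are named, without role or order, per the submitters' processing notes; annotation release and strand setting: not given in the sources used here. In a RefSeq gene table of another assembly (T2T-MMU8v2.0), 6 members overlapped another protein-coding gene (GNL3, POLR1C, NOP10, BOP1, POLR1A and WDR43) and 7 held small nucleolar RNA genes, so without a known strand setting their counts are uncertain. No member's sequence was used here.

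Symbols were matched by identifier for 14654 of 21314 genes. Counts were rounded and tested with edgeR 4.0.16 in R 4.3.3 (quasi-likelihood F test, filterByExpr with minimum count 10 and minimum total 15, TMM, group alone, Benjamini-Hochberg over all tested genes). A log2 fold change is the GG level minus the AG level, and its SE was derived from the F statistic. The procedure was tested on simulated data. Alternatives were DESeq2 1.42.0, other scalings and filters, thinning, a replicate block and leaving out each library. In the last, the set of tested genes was kept and a lone library was assumed to vary like the other group.

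The members and lists were chosen with earlier results of these data known. Named were every member and, from each other list, up to 3 called genes in each direction, taken by smallest p. MAX and POLR3GL were named outside this rule. Total estimated counts were 14129608 and 19108735 in AG and 21335918 and 29733977 in GG, and amplified reads are not independent molecules. The value of 1 blood cell marker is not reported here.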

Additional observations from a re-analysis of the deposited data

How the results depend on the processing

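Under other scalings (DESeq2 size factors, upper quartile) and thinning the same 4 members were called, and the median log2 fold change of the members stayed between -0.58 and -0.41 under every alternative run. Several counts moved. Over all genes there were 3333 calls with the DESeq2 Wald test and 2609 without a filter on low counts, and 69 to 3942 with single libraries left out. For the members those settings gave 9 calls (8 lower and 1 higher in GG), 8 calls (7 and 1) and 0 to 15 calls (0 to 14 lower and 0 to 1 higher). For the other biogenesis genes DESeq2 gave 37 calls (35 lower and 2 higher), the unfiltered fit 2 higher, and single libraries left out 0 to 56 (0 to 50 lower and 0 to 6 higher). Ribosomal proteins had 1 call with DESeq2 size factors, 2 each with the Wald test, without a filter, with a minimum mean of 10 CPM and after thinning, and 0 to 5 with single libraries left out. The cause of these shifts was not tested, except that fits without a GG library take their spread from the AG pair.

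The labels number the replicates alike in both groups but name no shared source. The deviations of same-numbered libraries correlated at 0.0986 over 13227 genes, and numbers were not treated as pairs. With the replicate block, 1697 genes and 5 members were called, the same 4 lower in GG and 1 higher, POLR1B.

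Of the members not called, 9 changed sign. BOP1 stood at -0.012 without a filter and -0.027 after thinning, and at -0.48 to 0.71 with single libraries left out. In those fits NPM1 ran from -0.74 to 0.20, DKC1 from -0.54 to 0.13, NOP10 from -0.30 to 0.046, GAR1 from -0.018 to 0.26, UTP20 from -0.20 to 0.34, WDR75 from -0.056 to 0.11, NAT10 from -0.34 to 0.10 and RRP1 from -0.29 to 0.12. All 4 called members kept their sign in every fit run.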
